A study of Mus musculus with 8 samples.

Results

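Testis RNA labelled castaneus was compared with testis RNA labelled ssp, on 2 Affymetrix expression arrays of each. These are 4 of the 8 arrays of the series, chosen by the word that follows Mus musculus in their titles. The remaining 4 arrays carry RNA labelled domesticus and musculus, 2 arrays of each, and their levels stand beside the results for orientation. Mus musculus castaneus is the house mouse subspecies of southern and southeastern Asia, while ssp is not spelled out in the labels and is used only as a group name. The labels name testis as the tissue and total RNA as the material of every group, with no treatment, transgene or time point. The sources used here do not give strain, age or how many animals an RNA came from. Within a group the 2 arrays are called technical replicates, so every p-value measures the spread between arrays and none measures the spread between animals. The comparison asks which transcripts differ in testis between these house mice.

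The testis holds germ cells at every step from stem cell to sperm, inside tubules formed by Sertoli cells and ringed by contractile peritubular cells. Leydig cells between the tubules make testosterone, and macrophages lie next to them. Spermatids package their DNA with transition proteins and protamines, whose transcripts are among the most abundant of the organ. In bulk RNA, fewer cells of a type and less RNA per cell cannot be told apart.

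Values are intensities as deposited, 1 for each probe set, which pools several short probes to 1 transcript. Intensities below 18.7, the 10th percentile of all values, were raised to that floor before log2 was taken. The tissue matched its label. Tnp2, a transition protein, read 69070.4 and 79849.4 on the castaneus arrays and 78064.1 and 84309.9 on the ssp arrays. Prm1, a protamine, read 53756.1 and 78089.7 against 55466.7 and 83528.9. Both genes overlapped between the groups.

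The ssp arrays resembled each other less than the castaneus arrays did. Between the 2 castaneus arrays 82.8% of tested probe sets agreed within 2-fold, and between the 2 ssp arrays 77.5%. The first ssp array was nearer to the first castaneus array, with 80.2% within 2-fold, than to its own replicate. The root mean square log2 difference was 0.83 within castaneus, 0.96 within ssp and 0.92 to 1.0 across the groups. The median intensities were 162 and 163 in castaneus and 177 and 180 in ssp.

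The test covered the 8874 of 12422 probe sets that reached the 40th percentile of intensity on 2 or more of the 8 arrays, and 31 of these, 0.349%, differed between castaneus and ssp. A probe set was called where limma gave an adjusted p under 0.05 and the group means differed at least 2-fold. In castaneus 17 probe sets, 0.192%, were higher, all with a gene name. In ssp 14 probe sets, 0.158%, were higher, 12 of them named. Group means of 84.9% of tested probe sets lay within 2-fold of each other, with a median log2 difference (castaneus minus ssp) of -0.03. A 2-fold difference without overlap between the arrays of the groups was met by 1079 probe sets, 12.2%, of which 488, or 5.5%, were higher in castaneus and 591, or 6.66%, in ssp. At 4-fold there were 209, or 2.36%, with 94 (1.06%) higher in castaneus and 115 (1.3%) in ssp. Of the calls, 5 reached the 40th percentile only on the arrays of the group where they were high and so had to differ: Ighm and Cnga3 in castaneus, and Lalba, Atp2a1 and Sry in ssp. The same held for 28 probe sets on each side among the 1079.

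The calls rest on all 8 arrays sharing 1 estimate of the spread. Leaving out either castaneus array or either ssp array, with the lone array assumed to vary like the other groups, gave 0 calls by limma, with an unadjusted p under 0.05 for 775 to 1036 probe sets. The castaneus and ssp arrays did not overlap in any of the 31 called probe sets. Their direction therefore could not turn in those 4 fits, and its staying the same is no support for the calls. Median centring of the arrays gave 13 calls higher in castaneus and 7 higher in ssp, and moved the median difference of all tested probe sets from -0.03 to 0.11.

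**Figure D1:**
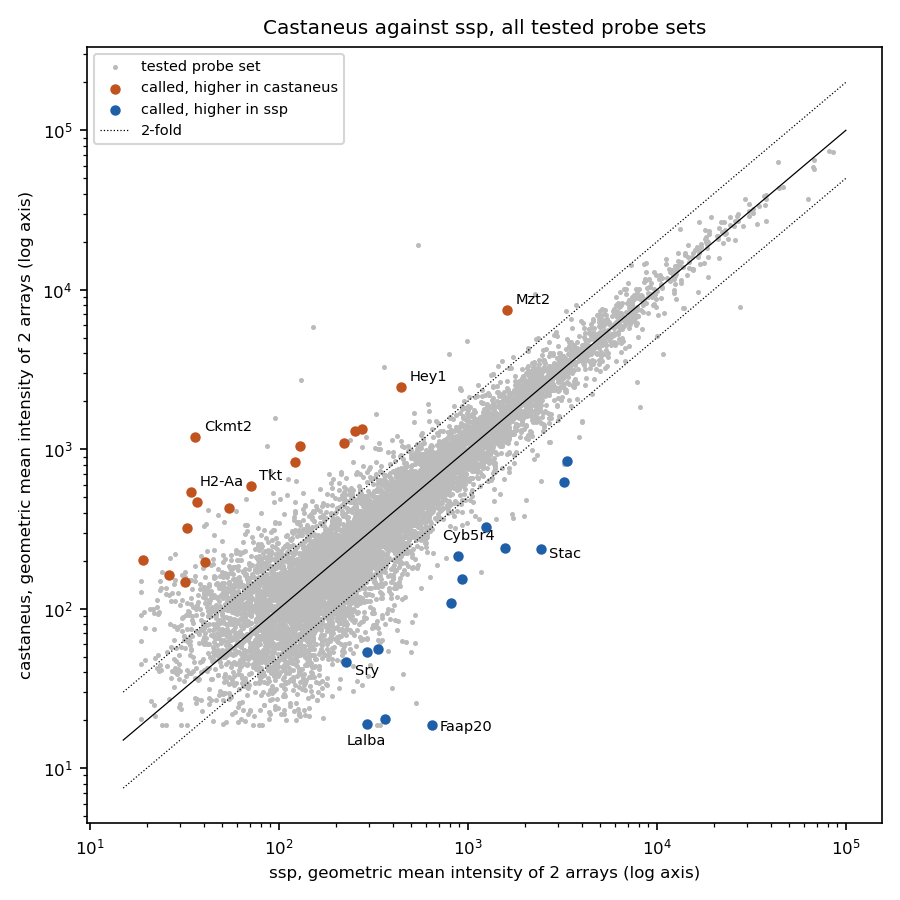
Geometric mean intensity of the 2 castaneus arrays (vertical, log axis) against that of the 2 ssp arrays (horizontal, log axis) for the 8874 tested probe sets. Grey points are tested probe sets, orange points the 17 called higher in castaneus and blue points the 14 called higher in ssp; most points lie between the dotted lines of a 2-fold difference, and the called points lie outside them.

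Ckmt2, a creatine kinase of muscle mitochondria, which makes phosphocreatine next to the respiratory chain, read 922.9 and 1533.3 in castaneus and 38.2 and 34.1 in ssp. This 33.0-fold difference (log2 5.04, SE 0.31; limma, adjusted p = 0.00826) was the largest among the calls higher in castaneus. The ssp arrays stood below all other groups, with domesticus at 1192 and musculus at 543. Tkt encodes transketolase, which moves carbon units in the pentose phosphate pathway. It read 609.3 and 567.7 in castaneus against 69.8 and 71.8 in ssp, 8.31-fold (limma, adjusted p = 0.0135), with domesticus at 473 and musculus at 1410. The 9 tested genes of that pathway had a median log2 difference of 0.02, and Tkt was the 1 member called; the next, Pgd, at 685.1 and 651.1 against 611.8 and 334.2, did not pass.

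Aldh2, the mitochondrial aldehyde dehydrogenase that clears acetaldehyde, read 759.0 and 921.9 in castaneus and 151.2 and 99.1 in ssp, 6.83-fold (limma, adjusted p = 0.0345). Abca1, which exports cholesterol to apolipoproteins, read 190.5 and 138.5 against 25.7 and 26.7, 6.2-fold (limma, adjusted p = 0.0462). A brighter Abca1 probe set read 369.4 and 222.5 against 195.5 and 234.1, a 1.34-fold difference with overlap that did not pass (limma, adjusted p = 0.683). By the called probe sets of Aldh2 and Abca1, ssp was the lowest of the 4 groups and castaneus was not the highest. Mrps21, a protein of the small mitochondrial ribosomal subunit, read 1090.5 and 998.3 against 119.3 and 140.5, 8.06-fold (limma, adjusted p = 0.0284), with domesticus at 655 and musculus at 393 in between. Of 13 tested aldehyde and alcohol dehydrogenase genes, 9 were higher in castaneus, with a median log2 difference of 0.3; 48.7% of all 6581 tested genes were higher in castaneus, with a median of -0.01.

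The calls H2-Aa, Ighm, Igkv9-120 and Itgae belong to the immune system. H2-Aa encodes the alpha chain of the class II molecule H2-A, which presents peptides to helper T cells. It read 672.6 and 435.3 in castaneus and 24.9 and 47.1 in ssp, 15.8-fold (log2 3.98, SE 0.40; limma, adjusted p = 0.0284). The ssp arrays stood apart from domesticus at 424 and musculus at 316. Class II genes share promoter boxes bound by a common factor complex that recruits the coactivator Ciita, and the last of these, the Y box, holds the letters ATTGG. The reference promoters of 3 measured class II genes are shown to place H2-Aa, which was called, beside H2-Eb1 and H2-DMb1, which were not. They come from RefSeq, assembly GRCm38.p6, and run from 250 bases before to 50 bases after the gene's start. Capitals mark ATTGG, or its reverse complement CCAAT, and TGACGTCA, a cyclic AMP response element that reads the same on both strands; the motifs do not overlap. H2-Aa is at chr17:34287774-34288073 (minus strand), H2-Eb1 at chr17:34305617-34305916 (plus strand) and H2-DMb1 at chr17:34152941-34153240 (plus strand).
H2-Aa: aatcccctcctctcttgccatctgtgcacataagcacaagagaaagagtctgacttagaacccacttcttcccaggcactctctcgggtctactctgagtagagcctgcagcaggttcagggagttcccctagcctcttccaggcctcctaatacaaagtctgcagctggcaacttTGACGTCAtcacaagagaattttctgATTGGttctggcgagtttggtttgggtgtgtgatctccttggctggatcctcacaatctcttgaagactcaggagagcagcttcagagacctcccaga
H2-Eb1: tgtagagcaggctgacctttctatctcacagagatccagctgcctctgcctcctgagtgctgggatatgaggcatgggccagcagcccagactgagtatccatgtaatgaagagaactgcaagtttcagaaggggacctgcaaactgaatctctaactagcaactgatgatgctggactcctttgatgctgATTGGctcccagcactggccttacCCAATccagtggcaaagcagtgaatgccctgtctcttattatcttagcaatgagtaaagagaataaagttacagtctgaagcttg
H2-DMb1: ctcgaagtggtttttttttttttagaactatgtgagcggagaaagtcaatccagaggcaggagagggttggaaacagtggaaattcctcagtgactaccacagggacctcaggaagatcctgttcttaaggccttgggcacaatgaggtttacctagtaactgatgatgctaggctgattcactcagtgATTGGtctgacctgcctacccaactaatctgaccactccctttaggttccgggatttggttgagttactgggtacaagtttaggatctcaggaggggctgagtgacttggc

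All 3 of these promoters hold ATTGG on the gene's strand, beginning 48 bases before the start in H2-Aa, 59 in H2-Eb1 and 61 in H2-DMb1, and H2-Eb1 holds a further one on the other strand. Of the 10 genes of the class II list with a promoter in the table, 8 hold it on either strand, against 37.4% of all 32851 promoters. H2-Aa alone of the 10 holds TGACGTCA, which 1.79% of all promoters hold. A class II gene was counted if any of its promoters held the motif, while both percentages are of single promoters. They are therefore not counted alike. Only exact matches were counted, and near matches in the other promoters were not looked for. The count therefore does not show that H2-Aa alone has a box of this kind. A match of letters is a description and does not show binding, and the mice measured here may carry other letters than the reference.

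The class II genes did not move as 1 block. Of 11 tested genes of the list, 8 were higher in castaneus and 3 in ssp, with a median log2 difference of 0.49, and this median ran from 0.34 to 1.09 over the alternatives tried. H2-Aa was the 1 member called. Those 2-fold or more apart without overlap were 4 higher in castaneus and 0 in ssp, against 5.55% and 5.91% of all tested genes. These 4 were H2-Aa, Cd74, Ctss and H2-Ea. Ctss, also in the macrophage list, read 202.2 and 290.1 against 56.1 and 160.1. H2-Ea read 100.5 and 51.8 against 18.0 and 50.3, with 1 ssp array at the floor. Neither Ctss nor H2-Ea passed (limma, adjusted p = 0.435 and 0.602). Cd74, the invariant chain that guides class II molecules to the endosome, read 766.6 and 587.2 against 322.4 and 322.5 and did not pass (limma, adjusted p = 0.178). H2-Eb1, a beta chain of the other class II molecule, read 383.7 and 102.7 against 508.7 and 230.0, with overlapping groups. H2-Ab1, the beta chain that pairs with H2-Aa, read 249.8 and 111.8 against 55.6 and 206.7, also with overlap. H2-DMb1, which helps to load peptides, read 331.6 and 94.7 against 239.3 and 137.1. Ciita, at 189.0 and 28.1 against 62.8 and 42.9, overlapped as well. The macrophage markers, which mark the cells that carry much class II in this tissue, had a summed intensity of 9896 to 10125 in castaneus and 9906 to 10168 in ssp over 17 tested genes. In that list 6 markers were higher in castaneus and 11 in ssp, and their part in the class II differences was not tested. Ncf1, the marker of this list with the largest difference without overlap, read 45.6 and 82.9 against 340.0 and 650.8, higher in ssp. Lyz2 read 59.4 and 15.7 against 106.6 and 170.0, and C1qc read 141.8 and 67.4 against 482.8 and 322.5, both higher in ssp. Tyrobp read 148.9 and 113.4 against 39.4 and 48.0, and Fcgr3 read 138.5 and 257.6 against 50.2 and 97.3, both higher in castaneus. None of these markers passed. The differences of 2-fold or more without overlap were 3 of the 17 in each direction. Of all tested genes, 5.55% met that rule higher in castaneus and 5.91% higher in ssp.

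For class I, 9 of 14 tested genes were higher in castaneus, with a median log2 difference of 0.31, which became -0.19 when the probe sets of a gene were averaged. Tap1, a subunit of the peptide transporter, read 165.2 and 157.8 against 18.7 and 69.6, and B2m, the invariant light chain, 604.2 and 635.0 against 296.4 and 386.5. Neither passed (limma, adjusted p = 0.473 and 0.273).

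Immunoglobulin genes gave 2 calls and the largest difference that was not called. By 1 of its probe sets, Ighm, the mu heavy chain, read 406.9 and 534.9 in castaneus and 39.7 and 34.2 in ssp, 12.7-fold (limma, adjusted p = 0.0284). Igkv9-120, a kappa light chain variable gene, read 290.5 and 357.9 against 38.4 and 28.1, 9.82-fold (limma, adjusted p = 0.0264). Igkv6-23, another kappa variable gene, read 6678.6 and 5177.3 against 131.8 and 176.3, 38.6-fold, and did not pass (limma, adjusted p = 0.0579); its 2 domesticus arrays differed, at 181.5 and 877.4, and enter the shared spread. Ighg3, a gamma heavy chain, read 1399.1 and 1771.4 against 94.7 and 95.6, 16.5-fold, and did not pass either (adjusted p = 0.0593). Its other tested probe sets differed by log2 values of 0.05 to 3.6. Castaneus was the highest of the 4 groups in each of these 4 genes by the probe sets given.

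Of 21 tested immunoglobulin genes, 16 were higher in castaneus, with a median log2 difference of 0.71 and a range of 0.32 to 0.86 over the alternatives. The differences of 2-fold or more without overlap were 5 higher in castaneus and 1 in ssp, where 5.55% and 5.91% of all tested genes met that rule. Many immunoglobulin probe sets can bind related chains, so a value cannot be tied to a single gene segment. Among B cell markers, 10 were tested and their summed intensity was 2350 to 2471 in castaneus and 2007 to 2400 in ssp. Of these 4 were higher in castaneus and 6 in ssp, with a median log2 difference of -0.21, while Cd79a and Cd22 were too dim to test. The B cell list itself holds the immunoglobulin genes Ighm and Iglc1. Ighm stands in both lists by the same probe set, so the lists are not separate. The part of B cells in the immunoglobulin differences was not tested.

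Itgae, the integrin alpha E chain of T cells that lodge in epithelia, read 354.0 and 516.9 in castaneus and 48.3 and 61.9 in ssp by the called probe set, 7.82-fold (limma, adjusted p = 0.0432). The brighter Itgae probe set read 1571.5 and 1267.6 against 1097.1 and 819.3, a 1.49-fold difference that did not pass. Of the 16 T cell markers on the array 7 were tested, and Cd3d, Cd3e and Cd8a were too dim.

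Hey1, a repressor switched on by Notch receptors, was called higher in castaneus. It read 2360.1 and 2532.2 in castaneus and 462.3 and 429.1 in ssp, 5.49-fold (log2 2.46, SE 0.23; limma, adjusted p = 0.0264). Here castaneus stood apart, since domesticus was at 291 and musculus at 428, next to ssp. The Notch list showed no shift of that size: 9 of 16 tested genes were higher in castaneus, with a median log2 difference of 0.16, or -0.22 with the probe sets of a gene averaged. Notch2, a receptor, read 324.5 and 510.3 against 231.9 and 117.0 and did not pass (limma, adjusted p = 0.482), and its dimmer probe set differed the other way, by a log2 value of -1.0.

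In a pair of genes best known from photoreceptors castaneus was also the highest group. Sag, the visual arrestin that shuts off rhodopsin, read 1298.0 and 1390.3 in castaneus against 219.5 and 343.1 in ssp, 4.9-fold (limma, adjusted p = 0.0462). Cnga3, a subunit of the cone channel opened by cyclic GMP, read 189.3 and 204.7 against 36.2 and 45.1, 4.87-fold (limma, adjusted p = 0.0422). Rsu1, a Ras suppressor protein of integrin adhesions, read 1079.3 and 1107.7 against 193.6 and 253.3, 4.94-fold (limma, adjusted p = 0.0345). Domesticus and musculus stood nearer to ssp in all 3, at 424 and 431 for Sag, 48.1 and 36.2 for Cnga3 and 230 and 336 for Rsu1.

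The remaining calls higher in castaneus concern chromosome pairing, the cytoskeleton and cell junctions. Syce2, a protein of the central element that joins paired chromosomes in meiosis, read 1275.8 and 1319.9 in castaneus and 266.8 and 240.4 in ssp, 5.12-fold (limma, adjusted p = 0.0432). The ssp arrays stood alone, with domesticus at 1393 and musculus at 1170. Of 15 tested spermatocyte markers, Syce2 included, 8 were higher in castaneus, with a median log2 difference of 0.04. Mzt2, a small protein of the gamma-tubulin ring complex, was the brightest of all calls, at 6519.9 and 8567.5 against 1558.8 and 1668.6, 4.63-fold (limma, adjusted p = 0.0432).

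Ctnna2, the neural alpha catenin of cell junctions, read 223.4 and 180.6 in castaneus against 11.6 and 19.7 in ssp, 10.5-fold (limma, adjusted p = 0.00826). With 1 ssp array at the floor, its log2 difference of 3.39 became 3.73 with the floor at the 5th percentile and 2.41 with the floor at the 20th. A brighter Ctnna2 probe set read 443.5 and 495.4 against 409.6 and 691.3, with overlap and a log2 difference of -0.18. Cask, an X-linked membrane scaffold, read 166.8 and 127.8 against 27.7 and 36.3, 4.6-fold (limma, adjusted p = 0.0462). Musculus at 19.2 resembled ssp in Ctnna2, and ssp alone was low in Cask.

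**Figure D2:**
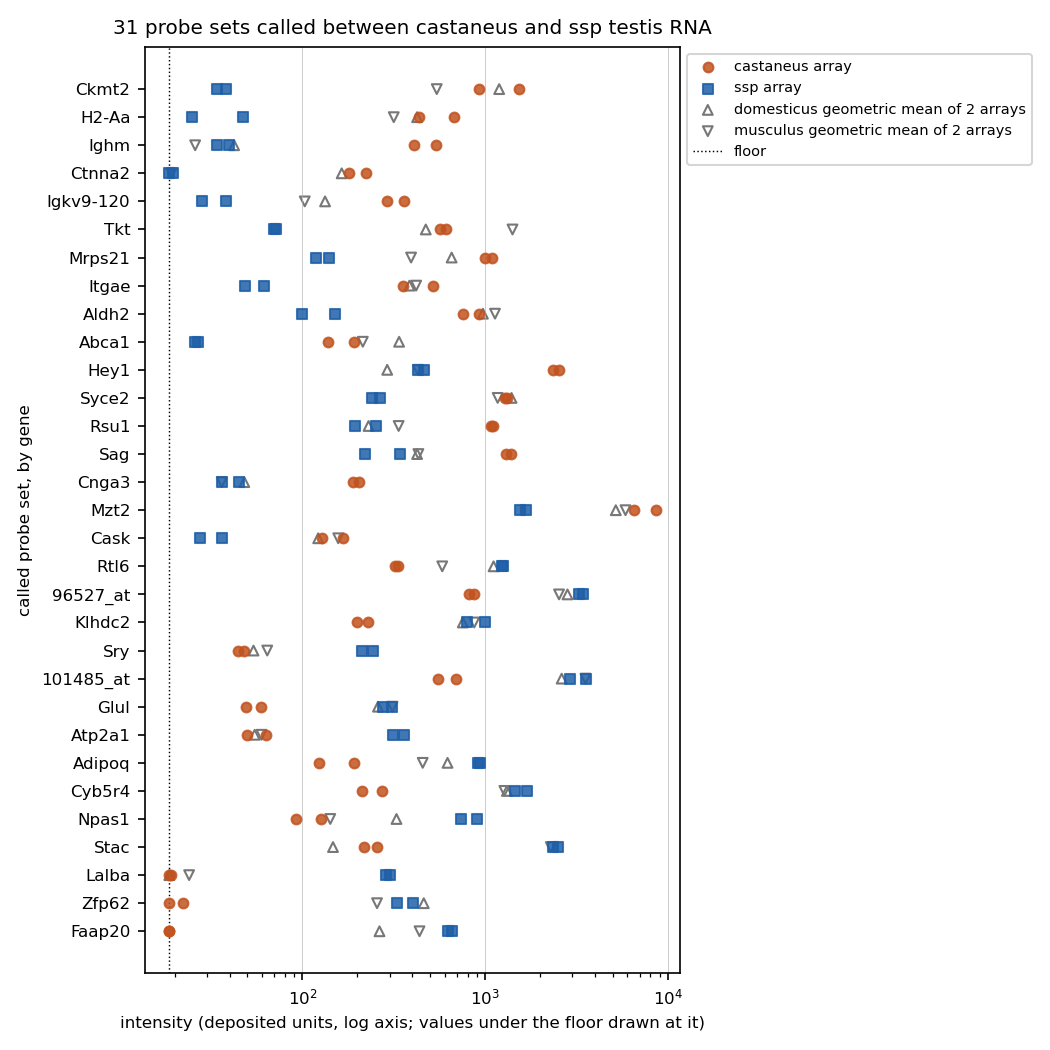
Intensity (horizontal, log axis) of the 31 called probe sets, 1 row each by gene, on the 2 castaneus arrays (orange circles) and the 2 ssp arrays (blue squares). Open triangles give the geometric means of domesticus (up) and musculus (down), and the dotted line is the floor of 18.7; in every row the castaneus and ssp arrays are separate, from Ckmt2 at the top to Faap20 at the bottom.

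Among the calls higher in ssp, Faap20, Zfp62 and Lalba sat at or near the floor in castaneus, so the size of their differences depends on that floor. Faap20, which links the Fanconi anaemia core complex to ubiquitin at DNA crosslinks, read 7.2 and 7.4 in castaneus and 629.2 and 655.9 in ssp. It was at least 34.4-fold higher in ssp (limma, adjusted p = 0.00826), with domesticus at 264 and musculus at 437. This bound belongs to the floor of 18.7: the log2 difference of -5.1 became -5.89 with the floor at the 5th percentile and -4.09 at the 20th. Of the 9 tested Fanconi and crosslink repair genes Faap20 was the 1 called, and Brca2, at 1934.1 and 2008.0 in castaneus against 1229.3 and 1109.2 in ssp, went the other way without passing.

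Zfp62, a zinc finger gene, read 22.3 and 4.0 in castaneus and 327.1 and 401.2 in ssp, 17.7-fold (log2 difference -4.15; limma, adjusted p = 0.00826). Its difference was -4.54 with the floor at the 5th percentile and -3.26 at the 20th. Among 73 tested genes named Zfp, 28 were higher in castaneus and 45 in ssp, with a median log2 difference of -0.14, which ran to 0 with the arrays centred on their medians. Those 2-fold apart without overlap were 3 higher in castaneus and 9 in ssp, against 5.55% and 5.91% of all tested genes.

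Lalba encodes alpha-lactalbumin, the milk protein that directs lactose synthesis. It read 19.0 and 15.6 in castaneus and 300.3 and 287.0 in ssp, 15.6-fold (log2 difference -3.96; limma, adjusted p = 0.00826), or -4.09 and -2.96 with the floor at the 5th and 20th percentile. Domesticus was at the floor and musculus at 24, and Lalba entered the test through its ssp arrays alone. The caseins Csn1s1 and Csn2 and the whey protein Wap were too dim to test.

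Stac, an adaptor protein with an SH3 domain, read 256.8 and 217.7 in castaneus and 2362.4 and 2504.8 in ssp, 10.3-fold (limma, adjusted p = 0.00826). Musculus, at 2283, was near ssp, and domesticus, at 147, was lower than castaneus. Npas1, a transcription factor of the bHLH-PAS family, read 126.1 and 92.5 against 736.8 and 903.1, 7.55-fold (limma, adjusted p = 0.0264), with musculus at 142 near castaneus. In both genes the domesticus and musculus levels did not fall on the same side.

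Cyb5r4, a cytochrome b5 reductase, read 212.8 and 271.2 in castaneus against 1687.1 and 1449.6 in ssp, 6.51-fold (limma, adjusted p = 0.0264). Glul, glutamine synthetase, read 59.2 and 48.9 against 309.6 and 277.4, 5.45-fold (limma, adjusted p = 0.0432). In both, castaneus stood below domesticus and musculus, which were at 1314 and 1273 for Cyb5r4 and at 259 and 311 for Glul. Glud1, which breaks down glutamate, differed in the other direction, at 333.7 and 129.8 in castaneus against 22.4 and 31.7, and did not pass (limma, adjusted p = 0.136).

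Adipoq, adiponectin, a hormone of fat cells, read 191.7 and 123.7 in castaneus and 941.0 and 914.4 in ssp, 6.02-fold (limma, adjusted p = 0.0462). The 8 tested adipocyte markers summed to 7613 to 11295 in castaneus and 9432 to 12575 in ssp, with 2 higher in castaneus and 6 in ssp. The part of fat cells in this difference was not tested, and Retn, Pparg, Slc2a4 and Car3 were too dim. Atp2a1, the calcium pump of fast muscle, read 49.7 and 63.4 against 361.7 and 312.9, 5.99-fold higher in ssp (limma, adjusted p = 0.0465), with domesticus at 54.8 and musculus at 59.7.

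Atp2a1 and Ckmt2 are both markers of striated muscle and differed in opposite directions. Of the 25 tested muscle markers 12 were higher in castaneus and 13 in ssp, with a median log2 difference of -0.13, or 0.01 with the arrays centred on their medians and 0.13 without the first castaneus array. Their summed intensity was 8844 to 11153 in castaneus and 7832 to 8691 in ssp. Those 2-fold or more apart without overlap were 3 higher in castaneus and 1 in ssp, where 5.55% and 5.91% of all tested genes met that rule. The calls Ckmt2 and Atp2a1 are themselves part of these sums and counts. The 1 higher in ssp is Atp2a1, which entered the test through its ssp arrays alone and so had to differ. Tnnt2, a troponin, read 346.1 and 481.6 against 90.4 and 251.6 and did not pass (limma, adjusted p = 0.483). The fast troponin Tnnc2 read 146.3 and 176.2 against 332.7 and 281.1, and Actn3, a fast muscle actinin, 1163.8 and 1135.1 against 495.8 and 113.9, and neither passed. The dimmer Actn3 probe set differed the other way, by a log2 value of -0.5. Acta1, Myh1, Myh2 and Mb were too dim to test, and the part of muscle in the calls was not tested.

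Sry, the Y-linked gene that sets testis development going in the embryo, read 44.5 and 48.0 in castaneus and 244.2 and 211.8 in ssp, 4.92-fold (limma, adjusted p = 0.0432). The ssp arrays were above domesticus at 54 and musculus at 64.2. The other Sry probe set was too dim to test, at 12.3 and 48.8 against 4.9 and 74.5. The other tested Y-linked genes did not pass: Eif2s3y read 720.8 and 316.8 against 766.6 and 770.2, Uba1y 273.5 and 340.9 against 209.9 and 258.6, and Kdm5d 109.1 and 180.8 against 158.9 and 59.7.

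On the X chromosome, 108 of 179 tested genes, 60.3%, were higher in castaneus, with a median log2 difference of 0.12. Of all tested genes 48.7% were higher in castaneus, with a median of -0.01. Those on the X 2-fold apart without overlap were 14 higher in castaneus and 8 in ssp, against 5.55% and 5.91% of all tested genes. The median kept its sign in the alternatives tried, between 0.04 and 0.26. Cask was the 1 X-linked gene called, and Morf4l2, a chromatin gene, at 1881.6 and 1510.7 against 609.9 and 437.7, did not pass (limma, adjusted p = 0.0906). The highest number of called genes was 3, of 364 tested, on chromosome 1. None was called on chromosomes 10, 18 and 19, of 302, 146 and 237 tested genes. On the Y chromosome 1 of 4 tested genes was called. Of all tested probe sets 0.349% were called, so counts this small are no result about a chromosome.

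Klhdc2, which selects substrates for a ubiquitin ligase, read 227.6 and 198.5 in castaneus against 991.2 and 794.5 in ssp, 4.18-fold (limma, adjusted p = 0.0462). Rtl6, a gene derived from a retrotransposon, read 331.3 and 320.2 against 1242.1 and 1246.2, 3.82-fold (limma, adjusted p = 0.0432), the smallest difference called. The 2 called probe sets without a gene name read 866.1 and 818.1 against 3424.9 and 3250.4, and 691.2 and 553.7 against 3557.0 and 2899.7. Castaneus was the lowest of the 4 groups in all 4 of these.

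The calls were chosen for a difference between castaneus and ssp, so their place among the 4 groups is a description. Both groups lay at opposite ends in 16 of the 31 calls, and in 16.6% of all tested probe sets. Castaneus was highest and ssp lowest in 8 of the 17 calls higher in castaneus, and castaneus was lowest and ssp highest in 8 of the 14 higher in ssp. Castaneus alone was at an end in 3 and 3 calls, and ssp alone in 6 and 3. Probe sets whose suffix marks a less specific design made up 8 of the 31 calls, or 25.8%, and 20.4% of all tested.

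Few other probe sets of the same gene repeated a called difference. Of the 29 called genes, 8 had another tested probe set, 15 probe sets in all. Of these, 11 differed in the same direction, and 3 by 2-fold or more without overlap. Those of Ckmt2 (164.0 and 150.3 against 87.5 and 18.2), Aldh2 (958.7 and 391.3 against 240.6 and 148.1) and Ighm (311.1 and 424.7 against 241.4 and 91.8) were the 3. A second Ctnna2 probe set went the other way, at 84.7 and 47.0 against 130.1 and 175.1, as did another of Ighm, at 21.0 and 33.8 against 108.1 and 74.1. The second probe sets of Glul (387.8 and 601.7 against 726.7 and 1180.6) and Faap20 (71.3 and 80.3 against 83.8 and 256.1) were also lower in castaneus, by 1.92-fold and 1.94-fold. No other probe set passed (limma, adjusted p of 0.155 to 0.938).

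**Figure D3:**
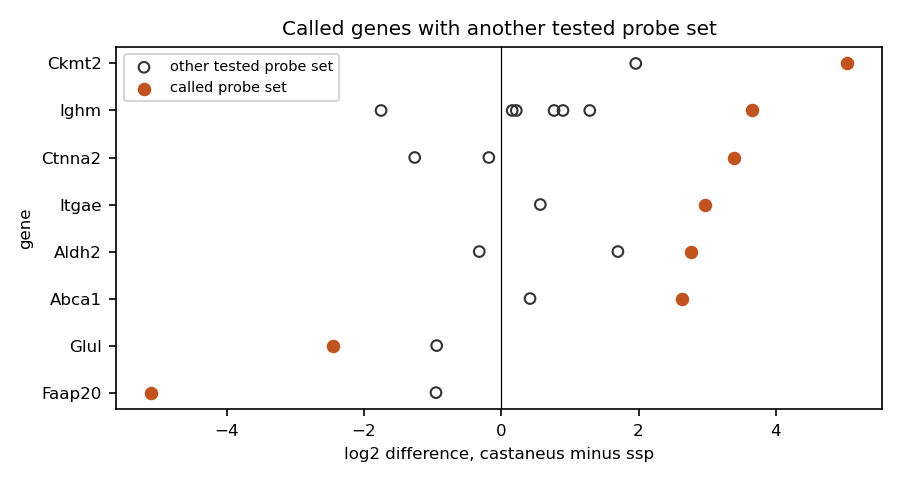
Log2 difference (castaneus minus ssp, horizontal) of the called probe set (orange) and of the other tested probe sets (open circles) for the 8 called genes that have both. In every gene the open circles lie nearer to 0 than the orange point, and 1 of 6 for Ighm, both for Ctnna2 and 1 of 2 for Aldh2 fall on the other side of 0.

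Below the threshold, 5 genes in each direction came closest by unadjusted p. Igkv6-23 and Ighg3 are given above. Egf, epidermal growth factor, read 206.1 and 236.1 in castaneus and 23.9 and 33.0 in ssp, 7.85-fold (limma, adjusted p = 0.0502), with domesticus at 405 and musculus at 24.4. Hgf, hepatocyte growth factor, read 118.3 and 136.3 in castaneus while both ssp arrays were at the floor, at least 6.79-fold (adjusted p = 0.0604). Crat, carnitine acetyltransferase, read 1137.9 and 1243.5 against 343.2 and 244.2 by its dimmer probe set, while the bright one differed by a log2 value of 0.3. Neither growth factor passed, and both were separated between the groups.

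On the ssp side, Ncf1, a subunit of the phagocyte NADPH oxidase, read 45.6 and 82.9 in castaneus and 340.0 and 650.8 in ssp, 7.65-fold (limma, adjusted p = 0.068). Ccl5, a chemokine of T cells and macrophages, read 54.4 and 14.9 against 470.5 and 332.5, 12.4-fold (limma, adjusted p = 0.0652). Prr15, Dlx5 and Echs1 were 7.79, 3.63 and 6.84-fold higher in ssp, with arrays that did not overlap. None of these 5 passed.

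Spermatid markers stayed within 2-fold or overlapped. Of 17 tested elongating spermatid markers, none was 2-fold apart without overlap. Of all tested genes, 5.55% met that rule higher in castaneus and 5.91% higher in ssp. Among the brightest of 4 equal groups of probe sets, 3.2% met it in either direction, so none in a list of this size is near that share. The median log2 difference was -0.06, or 0.08 with the arrays centred on their medians and -0.18 to 0.04 with 1 array left out. None of 16 round spermatid markers met the rule either, and their median was -0.03, or 0.11 after centring. Summed intensities overlapped, at 406541 and 480091 in castaneus against 444846 and 508264 in ssp for elongating spermatids. Among spermatogonial markers, Stra8, the retinoic acid target that opens meiosis, read 101.4 and 179.4 in castaneus against 29.3 and 21.8 in ssp, and Ddx4, a germ cell helicase, 1753.0 and 1238.4 against 4825.1 and 3369.3. Neither passed (limma, adjusted p = 0.159 and 0.181), and they differed in opposite directions.

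The Sertoli and Leydig cell markers had higher sums in castaneus than in ssp. For Sertoli cells, 23 tested markers summed to 29358 and 30850 in castaneus and 22561 and 22866 in ssp. Domesticus, at 28771 and 30888, and musculus, at 27931 and 28367, were near castaneus, and ssp was the lowest group. In that list 16 were higher in castaneus and 7 in ssp, with a median log2 difference of 0.32 that ran from 0.16 to 0.46 over the alternatives. None was called, where 0.349% of all tested genes were. Cst9, a cystatin, read 5049.5 and 4967.6 against 2202.7 and 2512.6, and Gdnf, which keeps the stem cells dividing, 182.8 and 208.1 against 72.5 and 35.5. Gata4, a transcription factor of these cells, went the other way, at 174.7 and 139.1 against 251.2 and 403.5. No member of these 3 passed (limma, adjusted p of 0.228 to 0.452).

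For Leydig cells, 16 tested markers summed to 18506 and 17033 in castaneus and 13566 and 14921 in ssp. The sums were higher still in domesticus, at 21228 and 24729, and in musculus, at 32909 and 39208. Of the 16, 11 were higher in castaneus and 5 in ssp, with a median log2 difference of 0.29 and a range of 0.24 to 0.43. None was called, where 0.349% of all tested genes were. Those 2-fold apart without overlap were 0 higher in castaneus and 2 in ssp, against 5.55% and 5.91% of all tested genes. Cyp17a1, which makes androgen precursors, read 3714.9 and 2790.6 against 1793.5 and 1607.6, and Star, which brings cholesterol into mitochondria, 174.9 and 206.3 against 118.2 and 120.8. Hsd11b1, at 110.8 and 48.4 against 178.9 and 242.4, and Hsd3b6, at 80.8 and 35.5 against 129.5 and 104.1, were higher in ssp. These 4 did not overlap between groups and did not pass (limma, adjusted p of 0.262 to 0.623).

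The endothelial, peritubular and proteasome lists held no call, which is near the share of 0.349% called among all tested genes. Endothelial markers had a median log2 difference of 0.47 over 9 tested genes, which became -0.52 without the second ssp array. Vwf, the von Willebrand factor, read 831.4 and 594.0 against 273.5 and 165.4 and did not pass (limma, adjusted p = 0.136). Peritubular and smooth muscle markers summed to 8568 and 9011 in castaneus and 10583 and 8841 in ssp, with 7 of 10 genes higher in ssp and a median of -0.32, or 0.03 without the first ssp array. Of 44 proteasome genes 31 were higher in castaneus, with a median of 0.18. Psme1, a subunit of the proteasome activator, read 304.3 and 225.2 against 71.1 and 106.9 and did not pass (limma, adjusted p = 0.134).

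**Figure D4:**
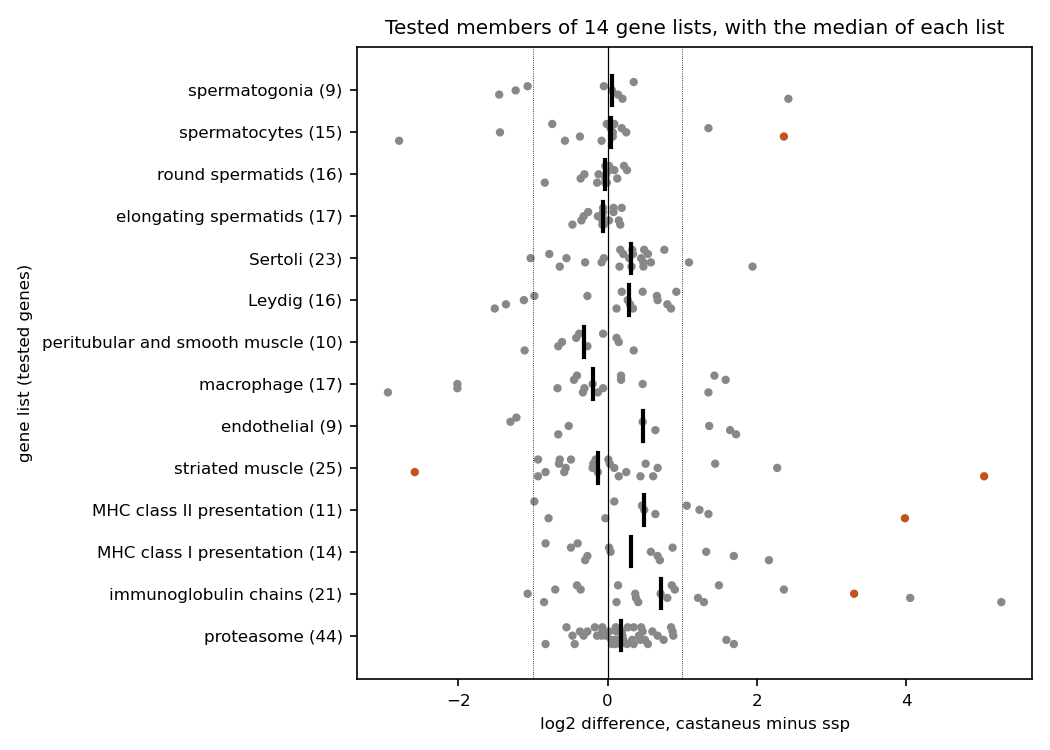
Log2 difference (castaneus minus ssp, horizontal) of every tested gene in 14 lists, with the number of tested genes in brackets; each point is 1 gene by its brightest probe set, orange where it was called, and the black bar is the median of the list. The medians lie between -0.32 for peritubular and smooth muscle and 0.71 for immunoglobulin chains, and the spermatid lists are the narrowest.

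The share of large differences varied with brightness. When tested probe sets were split into 4 equal groups by mean intensity, the dimmest, with mean intensities of 32.3 to 129, had 23.3% that were 2-fold apart without overlap, against 3.2% in the brightest. The median gap between replicate arrays went the same way, from 0.77 in castaneus and 0.96 in ssp (log2) in the dimmest to 0.25 and 0.28 in the brightest. The calls were spread more evenly, with 8, 7, 11 and 5 from the dimmest to the brightest.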

How the data were processed

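For 12422 probe sets on 8 arrays the authors deposited linear intensities that were already brought to a common scale: the mean after trimming 2% at each end was 495.6 to 496.7 on every array. Probes were summarised by a method not given in the sources used here. Column names gave the sample of all 8 columns. Of the probe sets, 10833 had 1 gene symbol in the platform annotation, 396 several and 1193 none, and 10817 had a RefSeq gene with the same Entrez number (GRCm38.p6), which gave names and chromosomes.

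Intensities were raised to a floor of 18.7 and turned into log2. A probe set entered the test if 2 or more of the 8 arrays had it at or above their 40th percentile. The test used limma 3.58.1 (R 4.3.3; 1 mean per group over 8 arrays, empirical Bayes, 4 residual and 2.34 prior degrees of freedom), with p-values adjusted by Benjamini-Hochberg over all 8874. Group means are geometric; a fold against a group with both arrays at the floor is a lower bound. The number of arrays limits the precision. Effects of sequence differences between the mice and the probes were not tested.

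The comparison and the gene lists were chosen with earlier results of these data known. Psmc3ip and Ighmbp2, which are no proteasome or immunoglobulin genes, were dropped from those lists after values were seen. Each listed gene was represented by its brightest tested probe set, and lists are described by counts and medians without a test. The text names every called probe set with 1 symbol, the 5 uncalled genes with the smallest p in each direction and, within lists, members chosen by size of difference among those without overlap; other members (such as Tyrobp, Fcgr3, H2-Eb1, H2-Ab1, H2-DMb1, Ciita, Star, Uba1y, Kdm5d, Tnnc2, Psme1 and Pgd) were added after their values were seen. Over all 46 lists, the median log2 differences ran from -0.34 to 0.71.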

Additional observations from a re-analysis of the deposited data

How the results depend on the processing

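The number of probe sets called, 31 with 17 higher in castaneus and 14 in ssp, depended on the filter and the variance model. Without a filter on dim probe sets there were 8 (4 and 4), with the filter at the 60th percentile 79 (35 and 44), and with the filter taken over the 4 castaneus and ssp arrays 55 (28 and 27), with fewer or more probe sets entering the adjustment. A trended and robust variance gave 87 (40 and 47) and a test against 1.5-fold 13 (7 and 6). With only the 4 arrays of the comparison in the fit limma called 0 (0 and 0), with 827 at an unadjusted p under 0.05. Median centring gave 20 (13 and 7). Leaving out 1 of the 8 arrays gave 0 to 8 calls, 0 to 4 in each direction: 0 without either castaneus or either ssp array, 8 without either domesticus array and 7 without either musculus array. A floor at the 5th or 20th percentile, quantile normalization and the rule without a minimum difference stayed within 1.5 times these counts. The cause of these changes was not tested.

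With the replicate number as a block there were 6 calls (2 and 4), all among the 31: Ckmt2, Ctnna2, Faap20, Zfp62, Lalba and Stac. No label says that the numbers pair the arrays. Deviations of first replicates correlated between groups at 0.0263 to 0.171, over 0.1 in 4 of 6 pairs of groups, and at 0.155 between castaneus and ssp. No named gene changed direction in any alternative, but the genes were chosen from these same arrays, whose values did not overlap, so little else was possible. With median centring 19 of 29 named genes were still called, and with quantile normalization 26. Of 46 list medians, 7 changed sign with median centring, 3 with quantile normalization and 5 to 10 when 1 castaneus or ssp array was left out. Differences of dim genes are limited by the floor.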

Other observations

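Among 1170 genes with 2 or more tested probe sets, 238 had at least 1 that was 2-fold apart between castaneus and ssp without overlap. In 25 of these, 2 or more probe sets met the rule in the same direction and none in the other, and in 5 genes probe sets met it in both directions.

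A probe set without a gene name read 18962.8 and 19378.5 in castaneus and 572.8 and 515.2 in ssp, and did not pass (limma, adjusted p = 0.0604); its domesticus arrays read 657.4 and 2884.5. It was chosen after its values were seen. A second Ighg3 probe set read 1081.5 and 1011 in castaneus and 145.6 and 51.2 in ssp. Nans, which makes sialic acid, read 3198 and 2300.5 against 282.9 and 60.2, with an adjusted p of 0.0767 by limma.

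Rpl39l, the ribosomal protein paralogue of testis germ cells, read 3998.8 and 3945 in castaneus and 10033.2 and 11457 in ssp, a 2.7-fold difference that did not pass (limma, adjusted p = 0.114), while 20 of the 31 tested genes in the ribosomal protein list were higher in castaneus. Mgst3, a microsomal glutathione transferase, read 1126.5 and 954.2 against 319.5 and 239 (adjusted p = 0.0652).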
